A study of Mus musculus with 9 samples.

Results

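Glypicans and syndecans are the families of proteoglycans that carry heparan sulfate chains on the cell surface. Glypicans are held to the membrane by a lipid anchor, and syndecans span it and have a short cytoplasmic tail. Their chains bind FGF, Wnt, BMP and hedgehog ligands and can hold them at the membrane or present them to their receptors, and these signals pattern the facial prominences. The genes were taken by symbol from the deposited table: Gpc1 to Gpc6 and Sdc1 to Sdc4, 10 of 54532 genes, each present once.

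RNA came from the lambdoidal junction of C57BL/6J mouse embryos, the place where the maxillary prominence joins the medial and lateral nasal prominences to form the upper lip and primary palate. Embryos were taken at E10.5 (embryonic day 10.5) and 1 and 2 days later (E11.5, E12.5), and each of the 3 libraries of a stage was made from pooled embryos. The labels name no treatment or mutation. Counts per library summed to 16581009–20836804. Stages were compared in pairs by the quasi-likelihood test of edgeR, and p-values were adjusted by Benjamini-Hochberg over all genes tested. The first interval is E11.5 vs. E10.5, the second interval is E12.5 vs. E11.5, and the whole period is E12.5 vs. E10.5. A gene is called changed where its adjusted p is 0.05 or less, and it is a DEG where its log2 fold change is also 1 or more in size. Levels are counts per library size (CPM), with TMM-scaled library sizes, a scaling that evens out differences in RNA composition, and CPM per kb of gene length where genes are set against each other.

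E10.5 replicate 3 stood apart from the other libraries of its stage, with a chi-square per degree of freedom of 63.4 and 68.3 against them over genes, where replicates 1 and 2 gave 6.78. The E12.5 libraries were also uneven (27.6, 30.5 and 59.6), and those of E11.5 less so (4.42–11.5). Over 16375 genes, its log2 difference from the other E10.5 libraries followed the GC content of the longest transcript (Spearman's rho = −0.546, taken over genes that are not independent of each other). Its summed epithelial markers (8 genes) were 757 CPM, against 414 and 472 CPM in E10.5 replicates 1 and 2, and its endothelial markers (6 genes) were 110 CPM, against 310 and 304 CPM. Calls of members that change without it are given beside their values. All 8 epithelial and all 8 mesenchymal markers were detected in every library. As the samples are whole tissue, fewer cells of a type and less RNA per cell cannot be told apart.

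The coding sequences of the 4 syndecans end in a stretch that encodes the tip of the cytoplasmic tail, which binds PDZ-domain proteins, and it is shown as a part common to members that behaved differently here. The last 60 coding bases, stop codon included, are printed from GRCm38, with capitals for the 14 bases that are the same in all 4 genes.
Sdc1: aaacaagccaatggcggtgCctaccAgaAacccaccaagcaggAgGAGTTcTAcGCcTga
Sdc2: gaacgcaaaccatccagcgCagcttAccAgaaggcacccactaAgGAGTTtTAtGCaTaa
Sdc3: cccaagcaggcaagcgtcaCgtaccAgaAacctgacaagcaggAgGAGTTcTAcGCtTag
Sdc4: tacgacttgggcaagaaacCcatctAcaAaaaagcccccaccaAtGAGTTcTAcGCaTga
They lie at chr12:8791748-8791807 (plus strand), chr15:33032481-33032540 (plus), chr4:130822750-130822809 (plus) and chr2:164426086-164426145 (minus). Over these bases Sdc1 and Sdc3 shared 38 of 60 and Sdc2 and Sdc4 shared 31, while Sdc2 and Sdc3 shared 22.

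In GRCm38, the glypican genes lie in neighbouring pairs or alone. Gpc4 (chrX:52053021-52165252) and Gpc3 (chrX:52272426-52613950) are neighbours on the minus strand, 107.2 kb apart with no gene starting between them. Gpc5 (chr14:115092215-116525179) and Gpc6 (chr14:116925315-117976544) are neighbours on the plus strand, 400.1 kb apart with 1 gene starting between them. Gpc1 lies at chr1:92831645-92860779 (plus) and Gpc2 at chr5:138273655-138280005 (minus). Sdc1 lies at chr12:8771323-8793715 (plus), Sdc2 at chr15:32920723-33034935 (plus), Sdc3 at chr4:130792537-130826319 (plus) and Sdc4 at chr2:164424247-164443887 (minus).

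Gpc3 and Sdc1 had the highest levels of their families at every stage. Gpc3, whose loss causes overgrowth and which restrains hedgehog signalling, reached 171 ± 3.56, 193 ± 1.39 and 194 ± 1.72 CPM per kb at the 3 stages in order (mean ± SD, n = 3). Sdc1, the main syndecan of epithelia, followed with 67.4 ± 6.96, 71.8 ± 4.69 and 76.2 ± 3.48 CPM per kb. At the other end, Gpc5 had 0.261 ± 0.141, 0.240 ± 0.0335 and 0.104 ± 0.0684 CPM per kb. Below Gpc3 and Sdc1, Gpc1 ranked next at every stage, although at E10.5 and at E12.5 its libraries overlapped with those of Gpc4, the next gene down. Sdc2, Sdc4 and Gpc6 could not be ordered at E10.5, since neighbouring genes overlapped, whereas at E11.5 and E12.5 the libraries of Sdc2 lay above those of Sdc4, and those of Sdc4 above those of Gpc6.

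**Figure D1:**
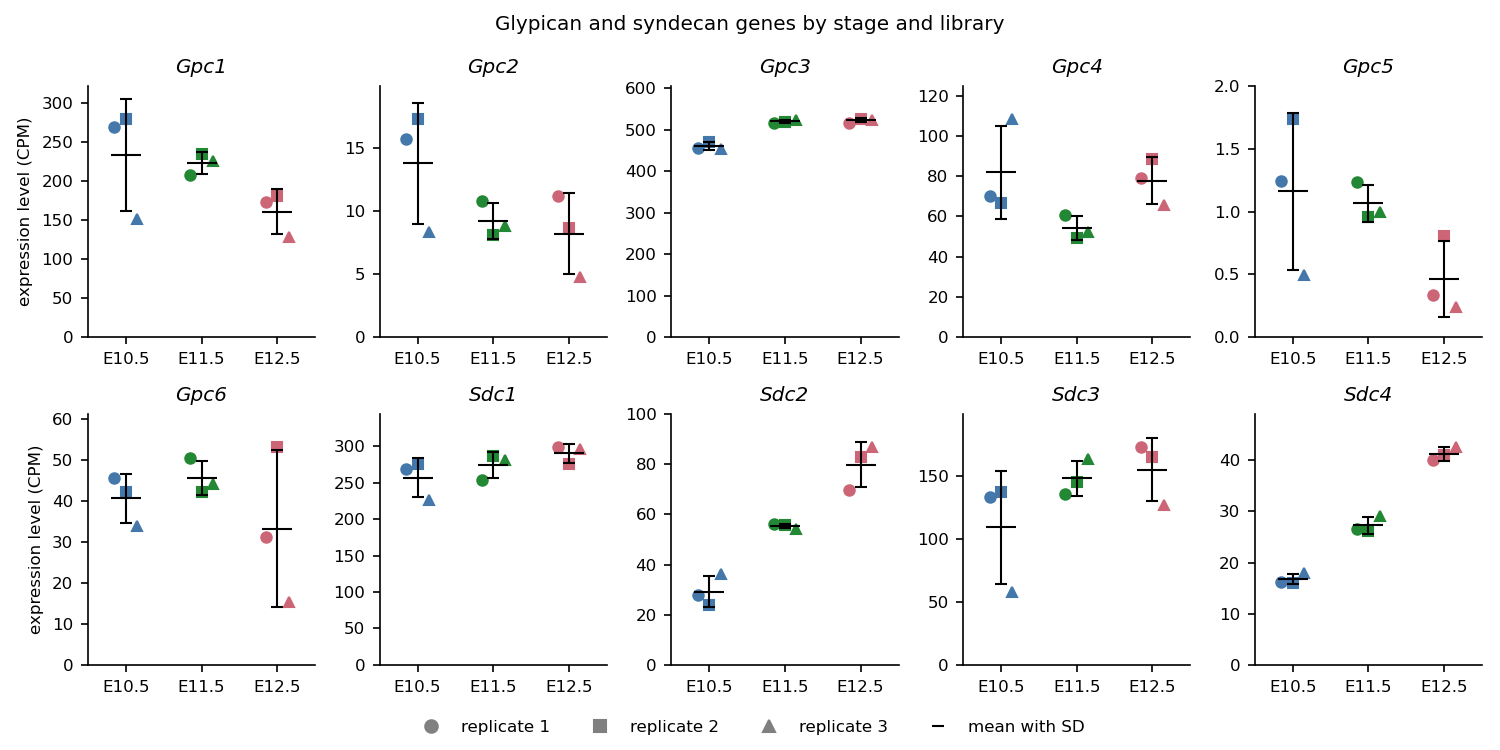
Expression level in CPM (vertical axis, from 0, a separate scale per gene) of the 10 genes at each stage. Points are libraries, marked by replicate number, and the black bars show the mean and SD of 3 libraries; Sdc2 and Sdc4 climb from stage to stage without overlap, and E10.5 replicate 3 lies apart in Gpc1, Gpc2, Gpc4 and Sdc3.

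Among the glypicans, Gpc3 made up most of the summed level per length. Its share of the glypican total was 66.6% ± 1.70, then 72.6% ± 0.280, then 74.3% ± 3.84 (SD, n = 3 per stage). Gpc1 held 17.5% ± 4.86, 16.2% ± 1.02 and 11.9% ± 1.62, and Gpc4 12.1% ± 3.92, 7.66% ± 0.853 and 11.2% ± 1.09. The glypican total itself was 257 ± 9.75, 266 ± 1.08 and 262 ± 13.6 CPM per kb. The make-up of the syndecans moved away from Sdc1, whose share was 67.1% ± 1.51, then 58.4% ± 1.30, then 54.0% ± 1.94, with no overlap between the stages. Sdc2 went from 8.49% ± 3.0 to 12.8% ± 0.884 and 16.1% ± 2.0, and Sdc4 from 6.66% ± 1.31 to 8.72% ± 0.461 and 11.5% ± 0.475. The syndecan total was 101 ± 12.3, 123 ± 6.60 and 141 ± 1.93 CPM per kb. Shares were not tested.

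**Figure D2:**
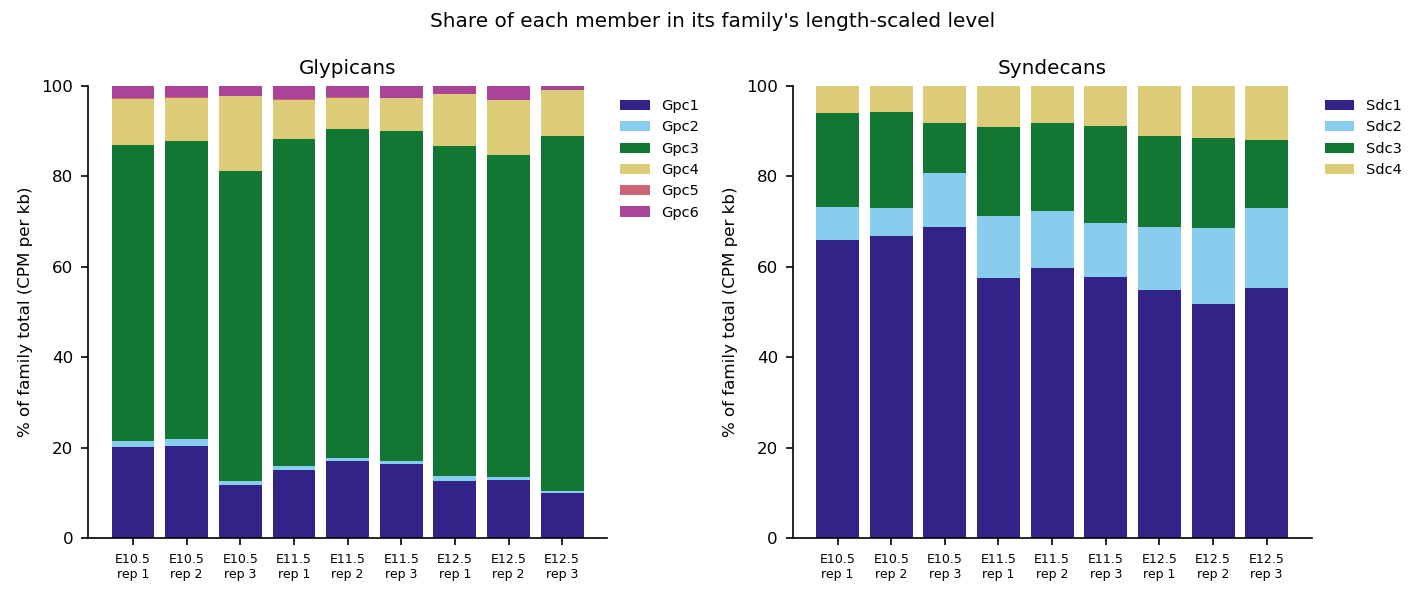
Share of each member in the summed CPM per kb of its family (vertical axis, % of family total) in each of the 9 libraries (horizontal axis), glypicans on the left and syndecans on the right. Gpc3 fills most of each glypican bar, and the Sdc1 part of the syndecan bars is smaller at E12.5 than at E10.5.

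The comparison of the stages asked which of these genes change as the prominences meet and fuse. All 10 passed the filter on low counts in every comparison. In the first interval, Sdc2 and Sdc4 rose, 2 of 10 where 6.19% of all genes tested were higher and 5.58% lower. In the second interval, Gpc4, Sdc2 and Sdc4 rose, 3 of 10 where 7.61% of all genes were higher and 4.57% lower. In the whole period, Sdc2 and Sdc4 rose, 2 of 10 where 14% were higher and 10.5% lower, and both were DEGs, as were 15% of all genes. No member was a DEG in the first or the second interval, where 6.07% and 5.1% of all genes were by edgeR. DESeq2 gave 0 DEGs in both as well, and at an unadjusted p under 0.05 there were 0 and 1 members with this fold. None of the 10 was called lower by edgeR, although at an unadjusted p under 0.05 Gpc4 was lower in the first interval and Gpc1 and Gpc5 in the second, and DESeq2 called Gpc4 and Gpc1 there. The libraries of the stages did not overlap in 4, 5 and 3 members in the first interval, the second interval and the whole period, against 36.7%, 35.3% and 42.4% of all genes tested. With 3 libraries against 3, no exact permutation test could pass 0.05, so these calls rest on the spread that edgeR estimates across genes. In a test of the 3 stages together on all 9 libraries, Sdc2 and Sdc4 passed and the other 8 did not, while 28.3% of 16375 genes passed.

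**Figure D3:**
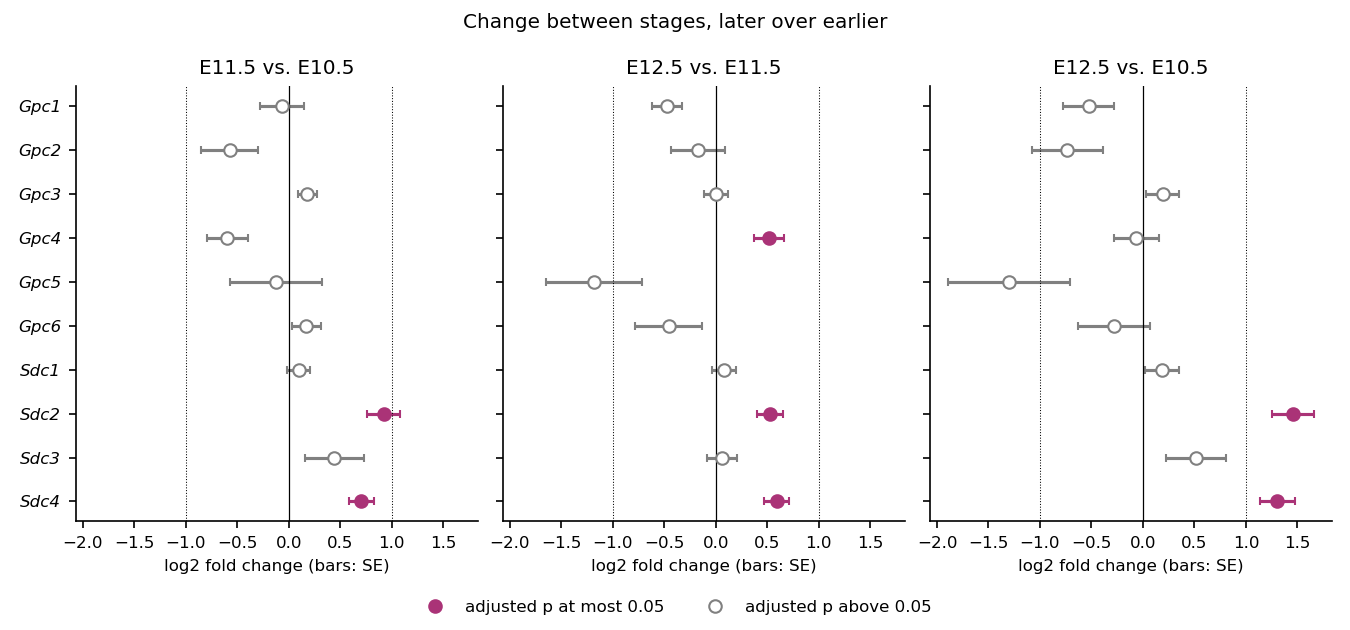
Log2 fold change, later over earlier stage (horizontal axis, bars show the SE), of the 10 genes in the first interval, the second interval and the whole period. Filled points were called changed, and the dotted lines mark a log2 fold change of 1 in either direction; Sdc2 and Sdc4 are filled in all 3 panels and Gpc4 in the middle one.

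Sdc2, a syndecan of mesenchymal cells, stood at 27.8, 23.7 and 36.2 CPM in E10.5 replicates 1, 2 and 3, at 56.1, 55.7 and 54.3 CPM at E11.5, and at 69.7, 82.8 and 87.1 CPM at E12.5. The libraries of each stage lay above all those of the stage before, and E10.5 replicate 3 was the highest of its stage. The log2 fold change was 0.92 (SE 0.16, adjusted p = 0.0105 by edgeR) in the first interval, 0.52 (SE 0.12, adjusted p = 0.0213) in the second interval and 1.46 (SE 0.20, adjusted p = 4.98e-04) in the whole period.

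Sdc4, which gathers at focal adhesions and activates protein kinase C alpha, rose by like steps. Its libraries were at 16.3, 16.1 and 18 CPM at E10.5, at 26.6, 26.2 and 29.1 CPM at E11.5 and at 40.1, 41.0 and 42.7 CPM at E12.5. Each stage again lay wholly above the one before. The log2 fold change was 0.71 (SE 0.12, adjusted p = 0.0107 by edgeR), 0.59 (SE 0.12, adjusted p = 0.0107) and 1.31 (SE 0.17, adjusted p = 3.59e-04) in the same order of comparisons. The 2 intervals did not differ for Sdc2 or Sdc4 by a test of the difference on all 9 libraries (second minus first, log2 −0.39, SE 0.28, adjusted p = 0.629, and −0.11, SE 0.23, adjusted p = 0.895).

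The calls of the single intervals depended on individual libraries. In the first interval, Sdc2 and Sdc4 lost their calls without E11.5 replicate 1 (adjusted p = 0.0645 and 0.0584 by edgeR) and without E11.5 replicate 3 (adjusted p = 0.0548 and 0.0773). In these fits 2.95% and 3.25% of all genes tested were called, against 11.8% with all libraries. In the second interval, no member was called once any one of the E11.5 libraries was left out. Calls over all genes then fell from 12.2% to 6.37%, 4.41% and 5.49% without E11.5 replicates 1, 2 and 3. Over all alternative fits, the log2 fold change of Sdc2 was 0.79–1.11 in the first interval and 0.45–0.62 in the second. That of Sdc4 was 0.66–0.76 and 0.54–0.65. With all 9 libraries fitted together, Sdc2 and Sdc4 did not both keep their calls in the second interval. The calls of both genes in the whole period held without each of the 6 libraries in turn. Summed mesenchymal markers (8 genes) moved in the same direction as these genes between stages, with 1422–2124 CPM at E10.5, 2961–3303 CPM at E11.5 and 3915–4657 CPM at E12.5. In the whole period 6 of the 8 rose, where 14% of all genes tested were higher and 10.5% lower. In the first interval 5 of the 8 rose, beside 6.19% of all genes, and the median log2 fold change of the 8 was 0.88. In the second interval 2 of the 8 rose, beside 7.61% of all genes, and their median log2 fold change was 0.12. Within E10.5, replicate 3 had the lowest mesenchymal sum and the highest Sdc2 and Sdc4 levels. This is the 1 library whose values followed GC content as given above. Summed neuron markers (7 genes) went from 200.1–219 to 257–285 and 385–458 CPM, and 3 rose in the whole period. Summed erythroid markers (6 genes) went from 287–650 to 729–775 and 831–1032 CPM, although 2 rose and 2 fell in the whole period. Macrophage markers (6 genes) went from 16.0–27.4 to 25.8–29.8 and 34.6–38.4 CPM, and 2 rose in the whole period. Epithelial sums (8 genes) were 414–757, 431–455 and 670–744 CPM, and endothelial sums (6 genes) 110–310, 296–307 and 262–313 CPM. Neuroectoderm sums (8 genes) were 352–485, 109–129 and 104–123 CPM. Those of chondrocytes and osteoblasts (7 genes) were 573–998, 521–608 and 546–739 CPM, where 3 genes rose and 2 fell in the whole period. The part of any set of markers in the rise of Sdc2 and Sdc4 was not tested.

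The 250 bases before the RefSeq start of Sdc4 (GRCm38.p6, chr2:164443189-164443438, minus strand) and of Gpc3 (chrX:52613975-52614224, minus strand) are shown as those of a steadily rising gene and of the gene with the highest level. Sdc2, which also rose at each step, had no RefSeq promoter to show. Capitals mark the GC box GGGCGG on either strand, and overlapping matches would be joined.
Sdc4: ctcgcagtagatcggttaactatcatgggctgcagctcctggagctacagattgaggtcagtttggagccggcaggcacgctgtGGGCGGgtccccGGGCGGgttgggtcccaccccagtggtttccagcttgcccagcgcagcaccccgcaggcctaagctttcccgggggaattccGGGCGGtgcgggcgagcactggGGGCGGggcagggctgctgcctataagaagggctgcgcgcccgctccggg
Gpc3: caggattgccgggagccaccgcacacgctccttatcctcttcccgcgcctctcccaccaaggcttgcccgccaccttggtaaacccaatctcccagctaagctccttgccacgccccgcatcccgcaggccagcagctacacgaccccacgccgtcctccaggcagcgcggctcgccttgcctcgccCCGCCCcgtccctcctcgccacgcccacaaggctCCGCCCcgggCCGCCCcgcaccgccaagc
Sdc4 held 4 GC boxes and 19 CG pairs, and Gpc3 held 3 and 25. The 7 members with a RefSeq promoter held 1–4 GC boxes and 10–32 CG pairs. Sdc3, which was not called with all libraries, held 3 and 32. Of 27025 promoters of this length, 32.9% held at least 1 GC box, and the median number of CG pairs was 6. The TATA motif TATAAA, on either strand, was found in neither of the windows shown and in 13% of all promoters. The Sdc4 window lies within the span that the deposited table gives to the gene.

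Gpc4, which modulates Wnt and FGF signalling, had its lowest levels at E11.5. It stood at 70.2, 66.7 and 108 CPM at E10.5, at 60.7, 49.1 and 52.4 CPM at E11.5, and at 79.1, 88.5 and 65.6 CPM at E12.5. The E11.5 libraries lay below all libraries of both other stages. The log2 fold change was −0.59 (SE 0.20, adjusted p = 0.092 by edgeR) in the first interval, 0.52 (SE 0.14, adjusted p = 0.0387) in the second interval and −0.07 (SE 0.22, adjusted p = 0.858) in the whole period. Without E10.5 replicate 3, the first of these was −0.34 and was called (adjusted p = 0.0106). The call in the second interval was lost in the fit on all 9 libraries (adjusted p = 0.125) and without E12.5 replicate 1 (adjusted p = 0.123). As given above, it was also lost without any one of the E11.5 libraries. The difference between the intervals was log2 1.12 (SE 0.34, adjusted p = 0.170 by edgeR). Gpc4 was the 1 member with an unadjusted p under 0.05 in this test, 0 of 10 passed adjustment, and 1.18% of all genes did.

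Its neighbour Gpc3 had 455, 471 and 454 CPM at E10.5, 517, 519 and 524 CPM at E11.5 and 517, 526 and 524 CPM at E12.5. The later libraries lay above the E10.5 libraries by a small step, log2 0.18 (SE 0.09, adjusted p = 0.234 by edgeR) in the first interval. This was called without E10.5 replicate 3 (log2 0.17, adjusted p = 0.0428).

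Gpc1, a widely expressed glypican that binds FGFs, ran from 269, 280 and 151 CPM at E10.5 to 207, 235 and 226 CPM at E11.5 and 174, 181 and 128 CPM at E12.5. E10.5 replicate 3 was below every E11.5 library, whereas replicates 1 and 2 were above them. The log2 fold change in the second interval was −0.47 (SE 0.15, adjusted p = 0.059 by edgeR), with the E12.5 libraries all below those of E11.5, and in the whole period it was −0.53 (SE 0.25, adjusted p = 0.146). Without E10.5 replicate 3, Gpc1 was called lower in the first interval (log2 −0.30, adjusted p = 0.00492) and in the whole period (log2 −0.76, adjusted p = 0.0106).

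Gpc2, a glypican of the developing nervous system, had 15.7, 17.3 and 8.30 CPM at E10.5, 10.8, 8.08 and 8.80 CPM at E11.5 and 11.2, 8.68 and 4.77 CPM at E12.5. With all libraries no comparison was called (log2 −0.57, −0.17 and −0.74, adjusted p = 0.218, 0.698 and 0.148 by edgeR, in the order of the comparisons above). Without E10.5 replicate 3 it was lower by log2 −0.83 in the first interval (adjusted p = 7.42e-04) and by −0.99 in the whole period (adjusted p = 0.0295). Markers of neuroectoderm (8 genes) fell together, from 352–485 CPM at E10.5 to 109–129 CPM at E11.5, and all 8 were called lower, beside 5.58% of all genes. Their sum was the highest of its stage in E10.5 replicate 3 (485 CPM), where Gpc2 was the lowest. Summed neuron markers rose over the stages. The part of either set of markers in the values of Gpc2 was not tested. Of the exon bases of Gpc2, 55.6% are shared with Gm43720 on the same strand. Gm43720 itself had 2 counts in E11.5 replicate 1 and 0 in every other library, so reads were hardly assigned to it. Reads that fit both genes may have been left out of the counts of Gpc2, which cannot be seen here. Gpc1, Sdc3 and Gpc5 share 18.9%, 7.73% and 2.4% of their exon bases with genes on the opposite strand. As the strand setting is not given, their counts may have lost reads in the same way.

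Gpc5 and Gpc6, the neighbours on chromosome 14, were the least even genes at E12.5. Gpc6, whose loss shortens the limbs in humans, had 45.7, 42.3 and 34.0 CPM at E10.5, 50.4, 42.3 and 44.2 CPM at E11.5 and 31.2, 53.3 and 15.3 CPM at E12.5. The E12.5 libraries spanned those of the other stages. Gpc5 had 1.25, 1.74 and 0.495 CPM, then 1.24, 0.962 and 1.00 CPM, then 0.338, 0.809 and 0.239 CPM, on counts of 4–30 per library. Neither was called with all libraries (the second interval, log2 −0.46, adjusted p = 0.372, and −1.18, adjusted p = 0.120, by edgeR). Without E12.5 replicate 2, both were called lower in that comparison, Gpc6 by log2 −0.98 (adjusted p = 0.0102) and Gpc5 by −1.87 (adjusted p = 0.0185), and without E10.5 replicate 3 Gpc5 was called in the whole period (log2 −1.65, adjusted p = 0.0425).

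With all libraries, the other syndecans did not pass the test in any comparison. Sdc1 had 268, 275 and 226 CPM at E10.5, 253, 286 and 282 CPM at E11.5 and 299, 275 and 296 CPM at E12.5, with a log2 fold change of 0.19 (SE 0.17, adjusted p = 0.457 by edgeR) in the whole period. Sdc3, a neural syndecan, had 133, 137 and 57.6 CPM, then 136, 146 and 164 CPM, then 174, 165 and 127 CPM, with a log2 fold change of 0.51 (SE 0.29, adjusted p = 0.225) in the whole period. E10.5 replicate 3 was the lowest of all 9 libraries for Sdc3. Without it, the log2 fold change of Sdc3 was 0.14 (SE 0.08, adjusted p = 0.185) in the first interval, against 0.44 with it, and 0.21 (SE 0.17, adjusted p = 0.389) in the whole period. That of Sdc1 was 0.01 (adjusted p = 0.885) and 0.11 (adjusted p = 0.619), against 0.10 and 0.19 with it.

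The distance of E10.5 replicate 3 from the other libraries of its stage differed between the members. On the log2 scale it was −1.23 for Sdc3, −0.86 for Gpc1 and −0.98 for Gpc2, with GC contents of 58.7%, 59.1% and 53.9%, and 0.49 for Sdc2 with 41.6%. For Gpc4 (50.8% GC) it was 0.66, for Sdc4 (49.3%) 0.15 and for Gpc3 (48.0%) −0.03. The lowest was Gpc5, at −1.39 with 48.9% GC on few counts, Gpc6 was at −0.37 with 45.7% and Sdc1 at −0.26 with 55.2%, so the members did not follow GC content throughout. Without this library, 6 of 10 members were changed in the first interval, where 39.6% of all genes tested then were, against 11.8% with all libraries. In the whole period 5 of 10 were changed, where 30.1% of all genes then were, against 24.6%. Removing the trend with GC content in each library gave 2 and 3 members, beside 22.4% and 31.1% of all genes. Without E12.5 replicate 2, 6 of 10 members were changed in the second interval, beside 30.8% of all genes, against 12.2% with all libraries.

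**Figure D4:**
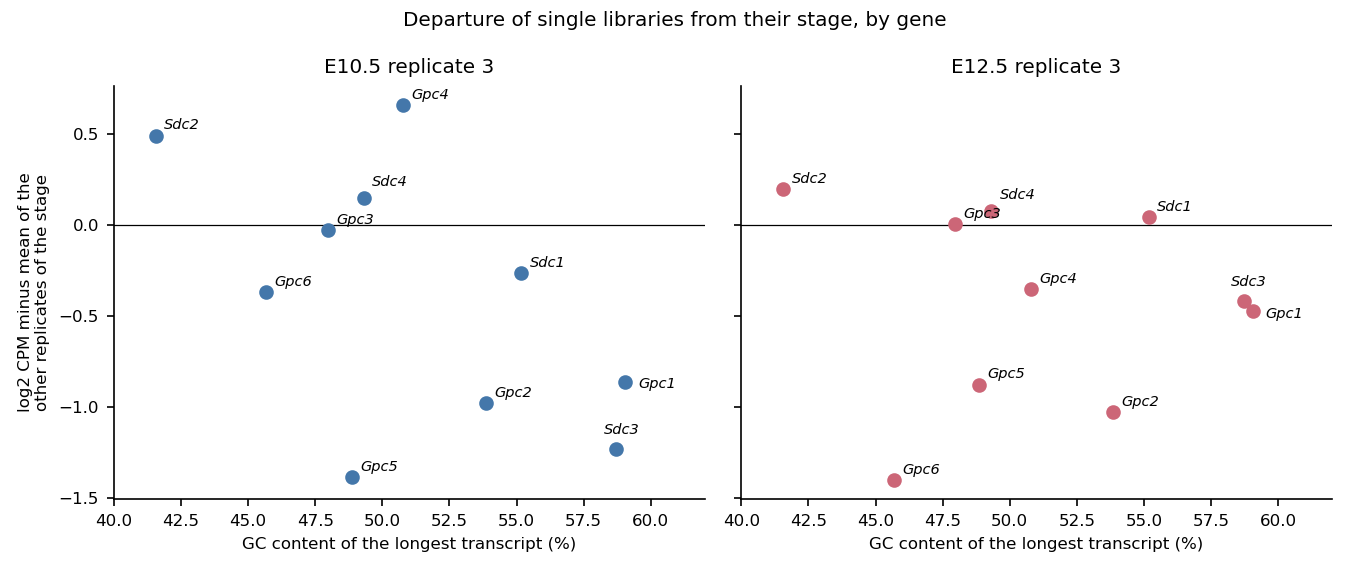
Difference in log2 CPM between 1 library and the mean of the other replicates of its stage (vertical axis) against GC content of the longest transcript in % (horizontal axis), for E10.5 replicate 3 (left) and E12.5 replicate 3 (right). Each point is a gene of the 10; in E10.5 replicate 3 Sdc3, Gpc1 and Gpc2 lie below 0 and Sdc2 and Gpc4 above it, and in E12.5 replicate 3 Gpc6 is the lowest.

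Heparan sulfate chains are built on these core proteins by linkage and polymerising enzymes, sulfated by others, and trimmed or released later. The 35 genes listed for these steps are called enzyme genes here. Of these, 6 of 31 tested (19.4%) rose in the first interval, 6 of 32 (18.8%) in the second and 10 of 31 (32.3%) in the whole period. Beside them, 6.19%, 7.61% and 14% of all genes tested were higher. By edgeR or by DESeq2, 0 were called lower, with 1 lower at an unadjusted p under 0.05 in each comparison. The count of the second interval holds Hs3st4, which passed the filter on low counts in that comparison only. It had 0–2 counts per library at E11.5 and 10–15 at E12.5, so its rise is not independent of the filter. The other 2 counts hold Hpse2 and Notum, which, as described below, do not trim the chains. The median log2 fold change of the enzyme genes tested in the whole period was 0.43, against −0.01 over all genes tested. The counts of the first 2 comparisons moved with single libraries, from 1 without E11.5 replicate 1 or 3 to 15 without E10.5 replicate 3 (when 39.6% of all genes were called), and from 3 without E11.5 replicate 2 to 12 without E12.5 replicate 2.

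Of the 12 linkage and polymerisation genes, 2 rose in the whole period, or 16.7%, a share near the 14% of all genes. Extl1, an exostosin-like gene, was at 0.891, 0.987 and 0.991 CPM at E10.5 and at 2.42, 3.34 and 4.23 CPM at E12.5 (log2 1.80, SE 0.35, adjusted p = 0.00395 by edgeR), and Pxylp1, which removes the phosphate from the linkage xylose, rose by log2 0.71 (SE 0.19, adjusted p = 0.0195). The polymerases Ext1 and Ext2 were not called.

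Of the 12 sulfation and epimerisation genes tested, 4 rose in the whole period, or 33.3% beside 14% of all genes. Hs3st6, a 3-O-sulfotransferase, rose most, from 1.01, 1.45 and 1.49 CPM at E10.5 to 4.2, 2.79 and 4.85 CPM at E11.5 and 10.9, 9.11 and 12.6 CPM at E12.5 (the whole period, log2 3.05, SE 0.29, adjusted p = 3.52e-05 by edgeR). Ndst3, an N-deacetylase and N-sulfotransferase, rose by log2 1.83 (SE 0.28, adjusted p = 9.84e-04), and Hs3st5 by 1.76 (SE 0.28, adjusted p = 0.00123). Hs3st1 rose by log2 1.49 (SE 0.36, adjusted p = 0.0117). At E10.5 these 4 genes had the lowest mean levels of the 12, from 1.32 CPM (Hs3st6) to 1.59 CPM (Ndst3). Among genes with higher levels, the mean of Hs2st1 went from 97.4 to 137 CPM and that of Glce from 55.8 to 71.6 CPM. Hs6st1 went from 62 to 58.1 CPM and Ndst1 from 206 to 137 CPM. None of the latter 4 was called in the whole period (adjusted p = 0.0511, 0.233, 0.825 and 0.193 by edgeR).

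Of the 7 genes of trimming, degradation and release, 4 (57.1%) rose in the first interval and 4 over the whole period, beside 6.19% and 14% of all genes, while 0 were called in the second interval by edgeR, by DESeq2 or at an unadjusted p under 0.05. Those of the first interval were Hpse, the heparanase, Hpse2, its inactive relative, Notum, a secreted hydrolase that removes the lipid of Wnt ligands, and the endosulfatase Sulf1. Hpse2 and Notum are in the list although, as so described, neither trims the chains. Both are among the 4 of the first interval and the 4 of the whole period. Hpse went from 0.773, 1.04 and 0.619 CPM at E10.5 to 3.44, 2.69 and 3.003 CPM at E11.5 and 2.48, 3.50 and 3.04 CPM at E12.5, with log2 1.90 in the first interval (SE 0.30, adjusted p = 0.00706 by edgeR) and −0.02 in the second (SE 0.24, adjusted p = 0.965). Hpse2 changed by log2 1.58 (adjusted p = 0.0346) and 0.37 (adjusted p = 0.336), and Notum by 1.28 (adjusted p = 0.0228) and 0.32 (adjusted p = 0.333). The difference between the intervals itself did not pass adjustment for any of the 4 (Hpse, second minus first, log2 −1.91, SE 0.48, adjusted p = 0.0867 by edgeR; Hpse2, Notum and Sulf1, adjusted p = 0.416–0.471).

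**Figure D5:**
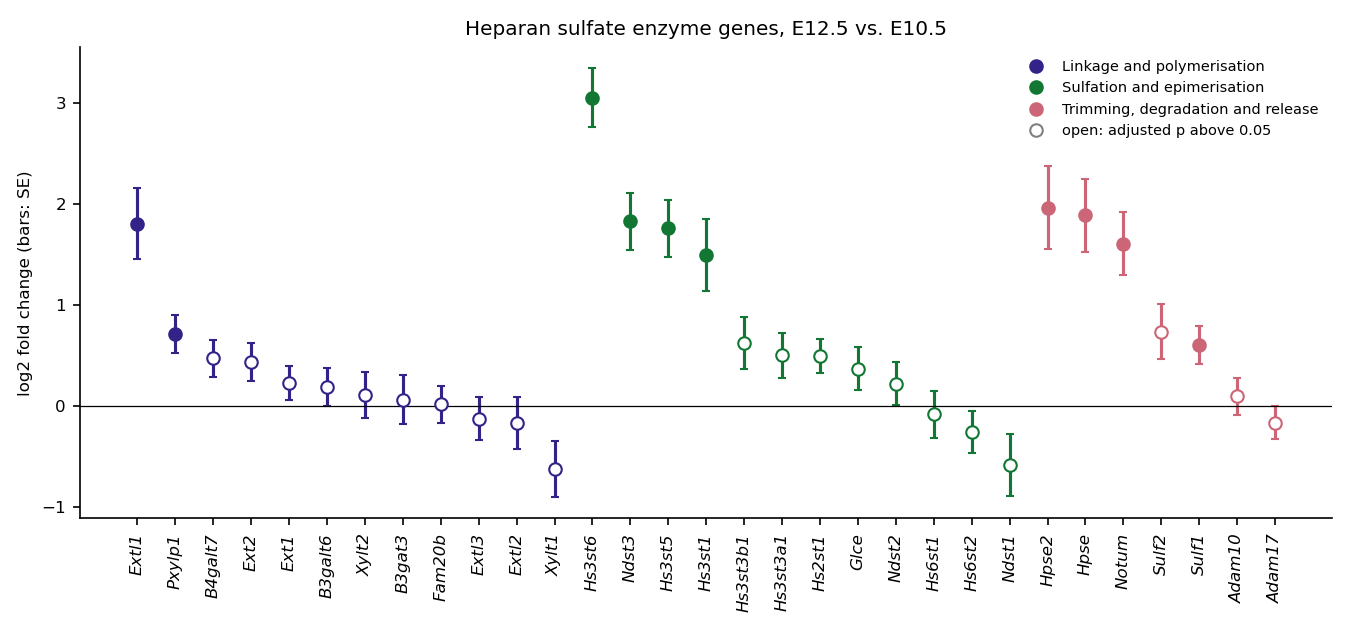
Log2 fold change in the whole period (vertical axis, bars show the SE) of the 31 heparan sulfate enzyme genes tested, coloured by their step and ordered by size within it. Filled points were called changed, and all 10 of them lie above 0, and Hs3st6 is the highest.

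Among genes that act with the members, Prkca, the kinase that Sdc4 activates, rose from 8.79, 9.29 and 8.30 CPM at E10.5 to 17.002, 14.7 and 16.1 CPM at E11.5 and 22.3, 25.8 and 19.9 CPM at E12.5 (the whole period, log2 1.37, SE 0.20, adjusted p = 7.17e-04 by edgeR). Of 7 tested cytoplasmic partners only Prkca was called in the whole period, or 14.3%, a share near the 14% of all genes that were higher. Ptn, pleiotrophin, a ligand of Sdc3, rose from 131–195 CPM at E10.5 to 344–489 CPM at E11.5 and 671–906 CPM at E12.5 (log2 2.18, SE 0.22, adjusted p = 5.05e-05), while the related Mdk was not called. Of 3 basement membrane heparan sulfate proteoglycans, only Col18a1 was called, and 10.5% of all genes were lower. It fell from 317–382 CPM at E10.5 to 150–210 CPM at E12.5 (log2 −0.94, SE 0.19, adjusted p = 0.00510 by edgeR).

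The genes whose log2 CPM was most like that of Sdc4 over the 9 libraries were Rtl3, Vmac and Prkar1b (Pearson's r = 0.993, 0.993 and 0.992). Those most like Gpc4 were Ptprz1, Tub and Parvg (r = 0.972, 0.944 and 0.943). The libraries of a stage share that stage, and these values are a description of 9 libraries only.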

How the data were processed

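RNA-seq of 9 libraries was analysed from 1 deposited table of 54532 genes. The authors mapped reads to GRCm38/mm10 with HISAT2 2.0.5 and deposited whole-number featureCounts read counts per gene, without normalization, and FPKM values from count and gene length. The strand setting is not given in the sources used here. The table also has 15 columns of the authors' own DESeq2 comparisons (stage means, log2 fold change, p-value and adjusted p-value), which were not used. Libraries were grouped by the labelled embryonic day. Labels do not say that same-numbered libraries share litters.

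Counts were tested in R 4.3.3 with edgeR 4.0.16 (filterByExpr, TMM, quasi-likelihood test) on the 6 libraries of each pair of stages. The SE was obtained from each log2 fold change and its F statistic (size over root F). Log2 CPM used a prior count of 2. DESeq2 1.42.0 and limma 3.58.1 served alternatives. Scripts used Python 3.11.15. On simulated data, 68%, 88% and 54% of log2 1 changes were called in the first interval, the second interval and the whole period. These changes were placed only in genes above a floor of expected counts, so the shares do not cover genes with low counts such as Gpc5. GC content and exons came from GENCODE vM21 (54409 genes matched), and promoters from RefSeq (7 of 10 members matched). Depth was 16581009–20836804 counts per library. All replicate pairs differed by more than counting error. Named genes are all members, and the 3 smallest p-values per list and direction over the whole period among changed genes. Sulf1, Ext1, Ext2, Mdk, Hs3st4, Hs3st1, Ndst1, Hs2st1, Glce and Hs6st1 were named after their values were seen. Members and lists were chosen with earlier results of these data known.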

Additional observations from a re-analysis of the deposited data

How the results depend on the processing

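The 7 calls of members were tried under the alternatives 105 times and lost 16 times, never with a change of direction, and the calls of Sdc2 and Sdc4 in the whole period were kept in all. The number of members changed in the second interval was 5 with no filter on low counts and 1 with all 9 libraries in one fit, against 3 in the main fit. With all 9 libraries in one fit, Gpc4 was not called, and Sdc2 and Sdc4 were not both called. The shares of all genes in these settings are not given here. With no filter, 6 members changed over the 3 stages and 1 had unequal change in the 2 intervals. Same-numbered libraries had correlations of deviations from −0.010 to 0.022 in the first interval, from −0.15 to 0.074 in the second and of 0.18, 0.070 and 0.22 in the whole period. As not every pair was over 0.1 and no label links the numbers, they were not taken as pairs. With the replicate block, 5 members changed in the whole period, beside 28.1% of all genes, and those gained were Gpc1 (adjusted p = 0.0430 by edgeR), Gpc2 (0.0329) and Sdc3 (log2 0.60, 0.0423). Leaving out 1 library at a time gave 0–6 members changed in the first interval, 0–6 in the second interval, 2–5 in the whole period and 2–6 over the 3 stages, 0–1, 0–1 and 2–3 DEGs in the order of the comparisons, and 1–15, 3–12 and 7–12 changed enzyme genes. In the same fits the share of all genes changed moved as well. It ran from 2.95% to 39.6% in the first interval, from 4.41% to 30.8% in the second and from 13.4% to 30.1% in the whole period. Values of members that were not called turned around 19 times. In the first interval, Gpc1 was at 0.017 with the GC trend removed and from −0.30 to 0.086 without single libraries (0.051 without E10.5 replicate 1), and Gpc5 from −0.48 to 0.28. In the second interval, Gpc3 was at −0.011 with DESeq2 size factors, −0.017 with DESeq2, −0.020 with no filter and from −0.017 to 0.013 without single libraries, Sdc3 at −0.075 with the GC trend removed and from −0.025 to 0.17, and Gpc2 from −0.45 to 0.088. Over the whole period, Gpc4 ran from −0.20 to 0.20 and Gpc6 from −0.80 to 0.060 without single libraries. The causes were not tested. The low counts of Gpc5 limit its precision.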
